A study of Mus musculus with 6 samples.

Results

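The respiratory chain genes of mouse bone marrow–derived macrophages (BMDMs) were followed through a 4-day exposure to heme. Members were chosen by gene symbol: names that begin with Ndufa, Ndufb, Ndufc, Ndufs or Ndufv, the genes Sdha to Sdhd, Cycs and Cyc1, names that begin with Uqcr, Cox4 to Cox8 or Atp5, and the protein-coding genes of the mitochondrial genome (mt-Nd, mt-Co, mt-Cytb and mt-Atp). The rule found 108 of the 25700 genes in the count tables. Of these, 86 are nuclear genes of subunits, 9 are nuclear genes that share the name stem but encode assembly factors or a coupling factor (Ndufaf1 to Ndufaf8 and Atp5s), and 13 are encoded by mitochondrial DNA. Ndufa4 and its paralog Ndufa4l2 were grouped with complex IV, where the protein is found.

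The heme group was BMDMs of C57BL/6J mice aged 8 to 10 weeks, differentiated with M-CSF (100 ng/ml), which received 300 µM heme-albumin on day 3 and were harvested on day 7. The control group was BMDMs raised in the same way that received albumin without heme. Each group had 3 libraries, described as macrophages of 1 mouse each, and no genetic change is given for either group. RNA was sequenced in bulk as stranded TruSeq libraries, so fewer cells of a type and less RNA per cell cannot be told apart. The comparison asks how heme changed the mRNAs of the 5 respiratory complexes and of the 2 genomes that encode them.

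Complexes I and II pass electrons from NADH and succinate to coenzyme Q, complex III passes them on to cytochrome c, and complex IV to oxygen. Complexes I, III and IV pump protons, and complex V (ATP synthase) uses the proton gradient to make ATP. Complex II is encoded wholly in the nucleus, and the others are built from nuclear subunits, translated in the cytosol and imported, together with a few subunits made inside the mitochondrion from mitochondrial DNA. Several subunits carry heme or iron-sulfur clusters, among them cytochrome b, cytochrome c1, cytochrome c and the core of complex IV.

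The libraries held 27201038 to 32994595 counts, and 3 counts correspond to at most 0.119 CPM, the unit used for levels here (edgeR's counts per 1e6 library counts after TMM scaling). Of all genes, 12433 passed the filter on low counts, and 7769 of them (62.5%) were called different between heme-treated and control BMDMs by edgeR's quasi-likelihood test at an adjusted p (Benjamini-Hochberg) under 0.05. Heme-treated BMDMs were higher in 3938 genes (31.7%) and lower in 3831 (30.8%), and the groups did not overlap in 68.8% of all tested genes. All counts below are to be read against these shares. The 8 macrophage markers were all tested and summed to 36425 to 39683 CPM in heme libraries and 31725 to 37592 CPM in control libraries. In that list 5 genes fell and 1 rose. Neutrophil markers summed to 1376 to 1523 CPM in heme libraries and 86.5 to 153 CPM in control libraries, of which Mmp8, a secreted collagenase, made up 1296 CPM in heme libraries and 30.8 CPM in control libraries on average. Of 9 tested neutrophil markers, 8 were higher and 1 was lower in heme libraries, and of 6 monocyte markers 4 were higher and 1 was lower. Of 6 T and NK cell markers, Cd3e, Cd3g and Trbc2 were at 0 in all libraries, and the list summed to 0.0337 to 0.183 CPM in heme libraries and 0 to 0.0306 CPM in control libraries. Erythroid markers summed to 0.948 to 1.55 CPM in heme libraries and 0.298 to 0.398 CPM in control libraries, with the 1 tested marker higher. Mast cell and basophil markers summed to 1.08 to 2.20 CPM in heme libraries and 0.537 to 0.917 CPM in control libraries, with 1 of 2 tested markers higher. The part of these other cell types in the results below was not tested.

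Of the 108 members, 103 were tested. In heme-treated BMDMs 43 were higher, 15 were lower and 45 were not called, and the groups did not overlap in 70 (68.0%). The 2 genomes moved apart. All 13 mitochondrially encoded mRNAs had negative log2 fold changes, with a median of -0.48, and 6 of them (46.2%) were called lower and none higher. Of 81 tested nuclear subunit genes, 37 (45.7%) were called higher, 8 (9.88%) lower and 36 not at all, with a median log2 fold change of 0.16. Most nuclear changes were small, since 70 of the 81 (86.4%) had an absolute log2 fold change under 0.5, against 59.3% of all tested genes.

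The size of the nuclear change depends on scaling, and its sign does too. When only library sizes were used to scale, 2580 of all tested genes were higher and 5814 lower, their median moved to -0.22, nuclear subunits had a median of -0.068, and 12 were higher and 28 lower. Relative to the median of all genes, the nuclear median lay between 0.11 and 0.17 above it, and the mitochondrial median between 0.37 and 0.61 below it (-0.37 to -0.61), over the main analysis and 16 alternatives. Of the 43 members called higher, 14 were called higher under every one of these settings in which they were tested, and of the 15 called lower, 11 were called lower. Without control library 1, members called lower numbered 25, among them 11 of the 13 mitochondrial genes.

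**Figure D1:**
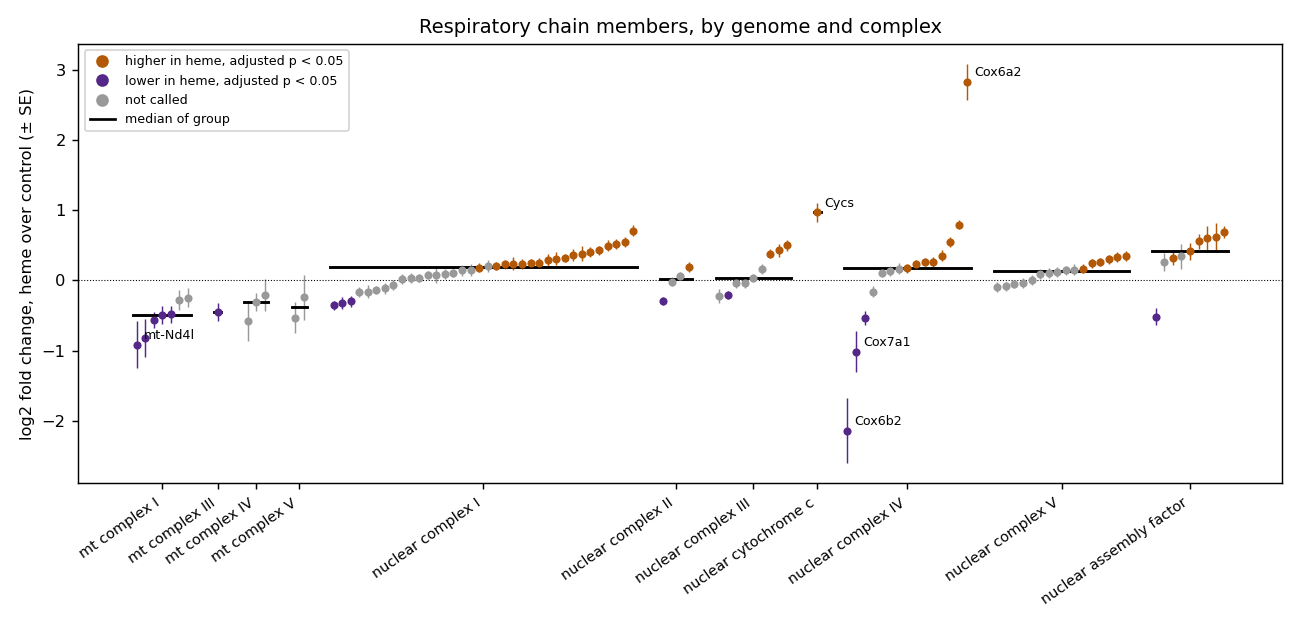
Each point is 1 tested member, with its log2 fold change of heme over control libraries (3 each) on the vertical axis and its standard error as a bar; members are grouped by genome and complex along the horizontal axis, and black lines are group medians. The mitochondrially encoded genes all lie under 0, with a median of -0.48, while most nuclear subunits lie within 0.5 of 0, and Cox6a2, Cycs, Cox7a1 and Cox6b2 stand farthest from it.

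The ratio of both genomes within a library does not depend on factors that scale a whole library. With offsets for GC content and gene length, the mitochondrial minus the nuclear median log2 fold change was -0.50, against -0.64 in the main analysis. Mitochondrially encoded counts divided by nuclear subunit counts were 0.762, 0.869 and 0.896 in heme libraries, against 0.964, 1.22 and 1.36 in control libraries. The groups did not overlap, but control library 1 lay close to the heme libraries. An exact permutation test over 3 against 3 libraries cannot give less than p = 0.1. Mitochondrial mRNAs were 0.443%, 0.494% and 0.531% of all counts in heme libraries and 0.609%, 0.769% and 0.840% in control libraries. In TMM-scaled CPM, their sum was 4831, 5311 and 5717 in heme libraries and 5550, 7182 and 7840 in control libraries, where control library 1 overlapped the heme range. Nuclear subunits summed to 6341, 6112 and 6380 CPM in heme libraries and 5758, 5870 and 5778 CPM in control libraries, a ratio of 1.08. That ratio was 0.928 with library sizes alone, since the nuclear subunits were 0.569% to 0.593% of all counts in heme libraries and 0.619% to 0.632% in control libraries.

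**Figure D2:**
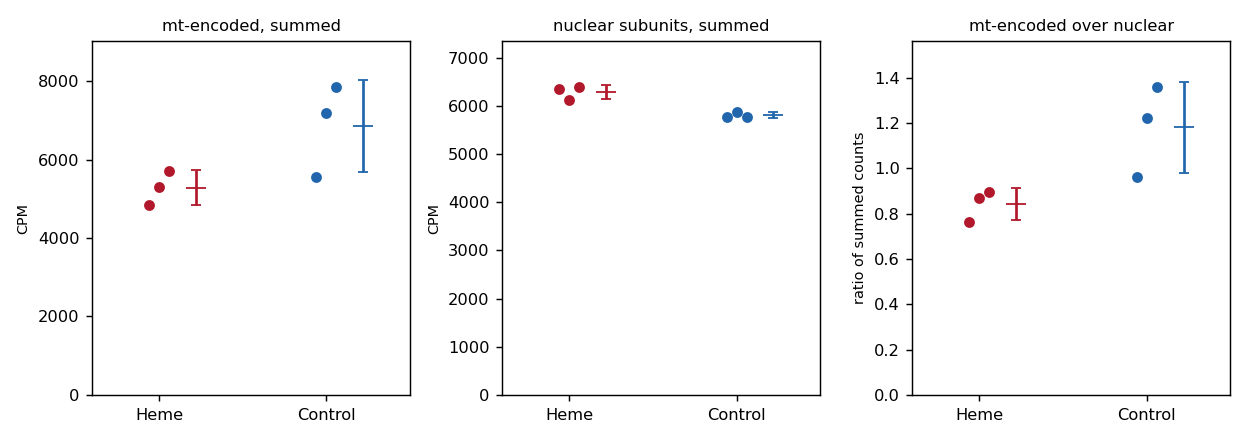
Points are single libraries (3 heme, 3 control), with the mean and SD beside them; the panels show summed CPM of the 13 mitochondrially encoded genes, summed CPM of nuclear subunit genes, and the ratio of the summed counts. The ratio reached at most 0.896 in heme libraries and was at least 0.964 in control libraries.

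The mitochondrial genome's mRNAs fell into 7 with more than 1000 counts in every library and 6 with fewer than 100. The mRNAs of the low group were mt-Nd3, mt-Nd4l, mt-Co2, mt-Co3, mt-Atp6 and mt-Atp8. Mean levels per kilobase of exon in heme libraries were 1.04 CPM per kb for mt-Co2 and 1611 CPM per kb for mt-Co1, although both encode catalytic core subunits of complex IV. Control libraries held 1.57 and 1998 CPM per kb of the same mRNAs. The low counts coincided with sequence that other annotated transcripts repeat. Of the 50-base stretches of mt-Co2, 100% also occur in nuclear pseudogenes, and the shares were 99.9% for mt-Co3, 99.5% for mt-Atp6, 98.8% for mt-Nd4l and 98.0% for mt-Nd3. The shares were 62.2% for mt-Nd4, 51.1% for mt-Co1, 8.19% for mt-Nd2, 7.61% for mt-Nd5 and 0% for mt-Nd1, mt-Nd6 and mt-Cytb. The exception was mt-Atp8, with 0% shared with any annotated transcript and 13 to 28 counts per library. On chromosome 1 the copies of mt-Atp6 (Gm10925) and mt-Co2 (Gm28661) are separated by 233 bases with no annotated copy, and on the mitochondrial genome mt-Co2 and mt-Atp6 are separated by 230 bases, where mt-Atp8 begins. None of the copies is listed in the count tables used here. How reads with several positions were counted is not given in the sources used here, and its part in the low counts was not tested.

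The repeated stretches are shown by their sequences, and their part in the low counts was not tested. Over 681 aligned bases mt-Co2 (chrM:7013-7696, plus strand) and Gm28661 (chr1:24614885-24615565, minus strand, an unprocessed pseudogene) had 0 differences. Over 492 aligned bases mt-Co1 (chrM:5328-6872, plus strand) and Gm29216 (chr1:24615706-24616197, minus strand) had 6 differences, all at the border of the copied stretch. The lines give bases 1 to 60 of the mt-Co2 transcript and bases 1054 to 1113 of the mt-Co1 transcript, each above the aligned copy, from GENCODE M21 transcripts (GRCm38.p6). Capitals mark the bases that differ between a transcript and its copy, so the mt-Co2 pair holds none.
mt-Co2: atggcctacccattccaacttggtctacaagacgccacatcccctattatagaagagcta
Gm28661: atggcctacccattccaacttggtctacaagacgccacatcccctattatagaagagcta
mt-Co1: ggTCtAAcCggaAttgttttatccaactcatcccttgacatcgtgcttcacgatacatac
Gm29216: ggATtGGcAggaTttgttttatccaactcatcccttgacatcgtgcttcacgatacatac

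**Figure D3:**
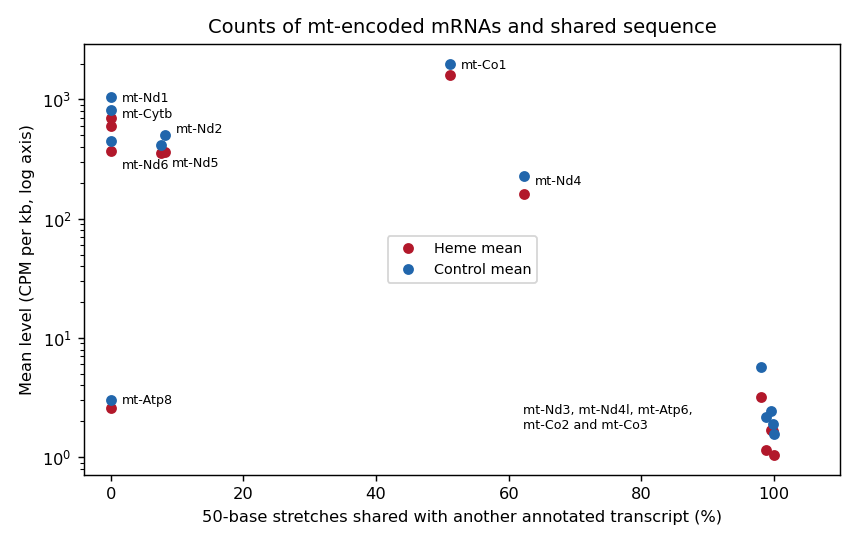
The horizontal axis gives the share of 50-base stretches of each mitochondrially encoded mRNA that another annotated transcript also holds, and the vertical log axis its mean level in heme (red) and control (blue) libraries in CPM per kb. The 5 mRNAs with 98.0% or more shared stretches all lie under 10 CPM per kb, as does mt-Atp8 with 0%, and the others lie over 100 CPM per kb.

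Among the well-covered mitochondrial mRNAs, 4 fell in heme-treated BMDMs. mt-Nd1, a membrane core subunit of complex I, had 597, 682 and 739 CPM in heme libraries, against 857, 1009 and 1121 CPM in control libraries. Its log2 fold change was -0.57 ± 0.11 (SE, n = 3 each, edgeR adjusted p = 0.00167), and every heme library lay under every control library. mt-Nd2, another membrane subunit of complex I, had 331, 382 and 409 CPM in heme libraries, against 433, 559 and 577 CPM in control libraries (log2 fold change -0.48, edgeR adjusted p = 0.00545). mt-Nd4, a proton-pumping subunit, had 198, 227 and 246 CPM in heme libraries, against 254, 328 and 359 CPM in control libraries (log2 fold change -0.49, edgeR adjusted p = 0.00765). The groups of mt-Nd2 and mt-Nd4 lay apart, but by less than 25 CPM between the nearest libraries. mt-Cytb, the heme-carrying cytochrome b of complex III, had 634, 661 and 760 CPM in heme libraries, against 761, 1000 and 1043 CPM in control libraries (log2 fold change -0.45 ± 0.12, SE, edgeR adjusted p = 0.00962). Heme library 3 and control library 1 nearly met in mt-Cytb. These 4 genes were called lower under all 17 settings, with mt-Nd1 between -0.47 and -0.79.

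The other well-covered mRNAs pointed the same way without passing the test. mt-Co1, which holds the heme a and copper centre of complex IV and had the highest level per length of any member, had 2324, 2498 and 2644 CPM in heme libraries, against 2451, 3244 and 3564 CPM in control libraries. Its log2 fold change was -0.31 (95% interval -0.60 to -0.02, edgeR adjusted p = 0.0626), and control library 1 lay within the heme range. mt-Nd5 had 571, 665 and 699 CPM in heme libraries and 610, 786 and 893 CPM in control libraries (log2 fold change -0.24, edgeR adjusted p = 0.139). mt-Nd6, the complex I subunit encoded on the opposite strand, had 172, 190 and 216 CPM in heme libraries and 179, 248 and 274 CPM in control libraries (log2 fold change -0.28, edgeR adjusted p = 0.123). In both genes control library 1 overlapped the heme libraries. All 3 of these mRNAs were called lower without it, and mt-Co1 stayed without a call under 9 of 17 settings. mt-Nd6 (chrM:13552-14070, minus strand) overlaps mt-Nd5 (chrM:11742-13565, plus strand) only at its end. Mean levels of mt-Nd6 and mt-Nd5 were 371 and 354 CPM per kb in heme libraries. In control libraries they were 450 and 418 CPM per kb. The strand setting of the counting is not given in the sources used here. If strand was not used, antisense reads over mt-Nd6 cannot be told from its mRNA.

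The 6 low mRNAs were read from few counts. mt-Nd3 had 37, 31 and 24 counts in heme libraries and 51, 66 and 84 in control libraries, and mt-Nd4l had 8, 9 and 11 in heme libraries and 18, 28 and 20 in control libraries. Both were called lower, with log2 fold changes of -0.82 and -0.91, but mt-Nd4l was called under 7 of 16 settings and mt-Nd3 under 13 of 17. mt-Co2, mt-Co3, mt-Atp6 and mt-Atp8 had log2 fold changes of -0.58, -0.21, -0.53 and -0.24 and were not called. Without them, the 7 well-covered genes had a median log2 fold change of -0.45 and 4 calls lower.

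**Figure D4:**
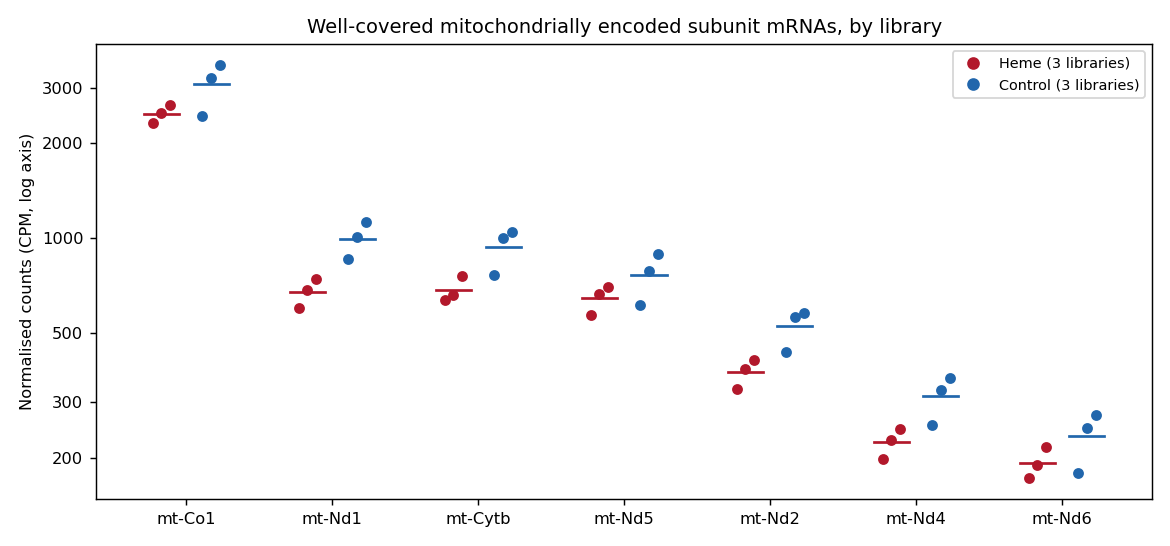
Points are single libraries (3 heme, 3 control) and lines their means, in CPM on a log axis, for the 7 mitochondrially encoded mRNAs with more than 1000 counts in every library. In mt-Nd1 the highest heme library (739 CPM) lies under the lowest control library (857 CPM), and in mt-Co1, mt-Nd5 and mt-Nd6 the lowest control library lies among the heme libraries.

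Complex I had 36 nuclear subunits, all tested. In heme-treated BMDMs 18 were higher, 3 were lower and 15 were not called, with a median log2 fold change of 0.19 that was -0.031 with library sizes alone, where 6 were higher and 11 lower. Without control library 1, 6 were lower. Ndufb6, an accessory subunit of the membrane arm, had 25.7, 23.2 and 23.9 CPM in heme libraries, against 15.6, 13.9 and 14.9 CPM in control libraries (log2 fold change 0.71 ± 0.08, SE, edgeR adjusted p = 5.13e-05). Ndufs5, an accessory subunit on the intermembrane side, had 30.4, 33.1 and 31.1 CPM in heme libraries, against 21.6, 22.1 and 21.3 CPM in control libraries (log2 fold change 0.54). Both genes were separated between the groups by more than 7 CPM. Ndufa12 had 34.8, 37.2 and 39.1 CPM in heme libraries and 26.4, 24.9 and 26.3 CPM in control libraries (log2 fold change 0.52). Ndufab1, the mitochondrial acyl carrier protein, had 38.3, 34.7 and 41.0 CPM in heme libraries and 28.2, 25.4 and 27.2 CPM in control libraries (log2 fold change 0.50). Ndufv1, which binds NADH and FMN, had 48.1, 48.7 and 46.0 CPM in heme libraries, against 37.0, 34.8 and 34.2 CPM in control libraries (log2 fold change 0.43). Ndufb9 rose by 0.41 on the same scale. These 6 genes were called higher under all 17 settings, whereas the other 12 were not called with library sizes alone.

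The electron-transferring arm of complex I did not move as a unit. Ndufs8, which carries iron-sulfur clusters close to the quinone site, had 37.2, 37.4 and 37.8 CPM in heme libraries, against 42.1, 46.8 and 51.4 CPM in control libraries (log2 fold change -0.32 ± 0.08, SE, edgeR adjusted p = 0.00624). Ndufv3, a small partner of Ndufv1 in the NADH-oxidizing module, had 41.9, 42.0 and 44.9 CPM in heme libraries, against 53.4, 55.4 and 55.7 CPM in control libraries (log2 fold change -0.35, edgeR adjusted p = 0.000847). Ndufb11, of the membrane arm, had 48.0, 40.6 and 41.1 CPM in heme libraries, against 50.3, 56.5 and 52.7 CPM in control libraries (log2 fold change -0.30). Within the NADH-oxidizing module, Ndufv1 and Ndufv2 rose (0.43 and 0.21), while Ndufv3 fell, and Ndufv2 alone of these 3 lost its call with library sizes alone. Ndufs1, the largest subunit, had a log2 fold change of 0.11 (95% interval -0.02 to 0.24), and Ndufs3 and Ndufs7 of the quinone-binding module had -0.17 and -0.07, none of them called.

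Of the 9 members that are not subunits, 8 named as assembly factors of complex I and Atp5s, 6 were higher, 1 was lower and 2 were not called, with a median log2 fold change of 0.42, and with library sizes alone 2 were higher and 1 lower. Ndufaf7, an arginine methyltransferase, had 16.1, 15.7 and 16.0 CPM in heme libraries, against 10.5, 9.67 and 9.48 CPM in control libraries (log2 fold change 0.69). Ndufaf4 had 11.4, 10.9 and 11.8 CPM in heme libraries, against 8.73, 7.40 and 7.13 CPM in control libraries (log2 fold change 0.56). Both groups were tight and apart. Ndufaf6, Ndufaf5, Ndufaf1 and Ndufaf3 rose by 0.62, 0.60, 0.42 and 0.32, but these 4 lost their calls with library sizes alone. Ndufaf8 went the other way, with 4.34, 4.94 and 4.07 CPM in heme libraries, against 6.74, 6.15 and 6.15 CPM in control libraries (log2 fold change -0.51, edgeR adjusted p = 0.00549).

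Of the 4 genes of complex II, 1 was called lower and 1 higher, the higher one (Sdhb) under only 7 of 17 settings. Sdha (chr13:74322254-74350280, minus strand, GRCm38.p6), the flavoprotein that oxidizes succinate, had 171, 176 and 171 CPM in heme libraries, against 212, 215 and 205 CPM in control libraries (log2 fold change -0.29 ± 0.06, SE, edgeR adjusted p = 0.00160). Sdhb, the iron-sulfur subunit, had 91.4, 95.6 and 95.5 CPM in heme libraries, against 77.4, 87.2 and 82.7 CPM in control libraries. Its log2 fold change of 0.19 passed the test (edgeR adjusted p = 0.0274) but was -0.029 with library sizes alone, and without control library 1 it was not called. Sdhc and Sdhd, the membrane anchors that hold a heme b, had 91.0 ± 1.0 and 91.5 ± 2.7 CPM in heme libraries and 92.0 ± 3.6 and 87.7 ± 2.9 CPM in control libraries (SD, n = 3). Their log2 fold changes were -0.01 (95% interval -0.15 to 0.12) and 0.06 (-0.07 to 0.20). Sdha was called lower under all 17 settings, and with library sizes alone Sdha, Sdhc and Sdhd were lower and none was higher.

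Complex III had 9 nuclear members, of which 3 were higher, 1 was lower and 5 were not called, with a median log2 fold change of 0.04. With library sizes alone the median was -0.18, and 2 were higher and 5 lower. Uqcrq, a small subunit next to cytochrome b, had 64.5, 56.8 and 60.7 CPM in heme libraries, against 43.8, 39.8 and 45.1 CPM in control libraries (log2 fold change 0.50, edgeR adjusted p = 0.000311). Cyc1, the heme-carrying cytochrome c1, had 62.6, 56.7 and 58.7 CPM in heme libraries, against 48.0, 38.3 and 45.8 CPM in control libraries (log2 fold change 0.43 ± 0.09, SE). Uqcrc2, a core protein, had 96.2, 95.9 and 99.7 CPM in heme libraries, against 72.6, 78.5 and 72.7 CPM in control libraries (log2 fold change 0.38). The groups were apart in all 3 of these genes, and Cyc1 lost its call with library sizes alone. Uqcrfs1, the Rieske iron-sulfur protein, had 54.6, 54.7 and 55.8 CPM in heme libraries, against 61.5, 66.0 and 63.4 CPM in control libraries (log2 fold change -0.21, edgeR adjusted p = 0.0125). The heme-carrying subunits of complex III thus had opposite signs in these libraries, higher for nuclear Cyc1 and lower for mt-Cytb.

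Cytochrome c, the soluble carrier between complexes III and IV, had the largest rise of any nuclear subunit with at least 100 counts in every library. Cycs, which encodes the somatic form, had 48.3, 46.2 and 52.1 CPM in heme libraries, against 31.2, 20.3 and 23.4 CPM in control libraries. Its log2 fold change was 0.97 ± 0.14 (SE, n = 3 each, edgeR adjusted p = 0.000213) and lay between 0.74 and 1.16 over the 17 settings. The testis form Cyct was at 0 in all libraries. Of the 50-base stretches of Cycs, 28.5% recur in other annotated transcripts, Gm10053 most of all, and how such reads were counted is not given in the sources used here.

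Complex IV had 20 nuclear genes, of which 15 were tested. In heme-treated BMDMs 8 were higher, 3 were lower and 4 were not called, with a median log2 fold change of 0.17 that was -0.047 with library sizes alone, where 3 were higher and 4 lower. Ndufa4 (chr6:11900292-11907497, minus strand) had 105, 98.0 and 103 CPM in heme libraries, against 55.8, 59.2 and 61.5 CPM in control libraries. Its log2 fold change was 0.80 ± 0.06 (SE, n = 3 each, edgeR adjusted p = 5.00e-06), with more than 36 CPM between the nearest libraries. Cox7b had 104, 98.0 and 109 CPM in heme libraries, against 69.5, 74.7 and 68.3 CPM in control libraries (log2 fold change 0.55, edgeR adjusted p = 7.85e-05). Cox5a, Cox6a1, Cox7c, Cox7a2 and Cox6b1 rose by 0.35, 0.26, 0.26, 0.23 and 0.17, and all 5 lost their calls with library sizes alone, where Cox6b1 stood at -0.047. Cox4i1, the ubiquitous form of subunit 4, had 243, 223 and 242 CPM in heme libraries and 240, 283 and 268 CPM in control libraries (log2 fold change -0.16, edgeR adjusted p = 0.0927), and it overlaps other counted genes. Per kilobase of all annotated exons, Cox6a1 and Cox6b1 led the nuclear members, with 215 and 204 CPM per kb in heme libraries and 179 and 180 CPM per kb in control libraries. With transcript lengths this order could differ, since Atp5b has 4237 exon bases but a longest transcript of 1916.

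Complex IV is also the one with tissue-specific isoforms, and the sharpest differences lay there. Cox6a2 (chr7:128205435-128206387, minus strand), the heart and muscle form of subunit 6A, had 162, 104 and 165 counts in heme libraries, against 36, 23 and 16 counts in control libraries. That was 5.46, 4.11 and 6.05 CPM in heme libraries, against 0.995, 0.686 and 0.489 CPM in control libraries, and the log2 fold change was 2.83 ± 0.25 (SE, edgeR adjusted p = 1.01e-05). Every heme library exceeded every control library at least 4-fold. Per length, Cox6a2 nevertheless stood at 7.66 CPM per kb in heme libraries, far under the 215 CPM per kb of the ubiquitous form Cox6a1. The log2 ratio of Cox6a2 to Cox6a1 per kilobase was -4.81 in heme libraries and -7.32 in control libraries. The difference was 2.51 with a pseudocount of 0.1 CPM per kb and 1.81 with a pseudocount of 1. Cox6a2 overlaps Itgad on the opposite strand, which had 83 counts in the 6 libraries together against 506 of Cox6a2.

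Cox7a2l (chr17:83501918-83517330, minus strand), a paralog of subunit 7A that helps to join complexes III and IV into supercomplexes, fell. It had 135, 130 and 137 CPM in heme libraries, against 166, 223 and 196 CPM in control libraries (log2 fold change -0.54 ± 0.10, SE, edgeR adjusted p = 0.00107). Cox7a2, the ubiquitous subunit 7A, had 67.1, 63.4 and 67.9 CPM in heme libraries, against 55.6, 58.0 and 55.3 CPM in control libraries (log2 fold change 0.23). The log2 ratio of Cox7a2l to Cox7a2 per kilobase was 0.37 ± 0.01 in heme libraries and 1.13 ± 0.19 in control libraries (SD, n = 3 each), so Cox7a2l exceeded Cox7a2 in every library but by less in heme-treated BMDMs. This ratio hardly depends on factors that scale a whole library. Of the 10 isoform pairs compared, 6 had counts of both members in every library. Each of these gave the smallest possible p of 0.1 in the exact permutation test with either pseudocount, 0.1 (adjusted 0.125) or 1 CPM per kb. Sparse members made the size of the difference between heme and control libraries depend on the pseudocount. From the smaller to the larger pseudocount it moved from -1.84 to -0.67 for Cox6b2 over Cox6b1. For Cox7a1 over Cox7a2 it moved from -1.21 to -0.87, and for Cox7a2l over Cox7a2 only from -0.76 to -0.75. In the other pairs a member lacked counts in some libraries, so the ratio rests on the pseudocount and is not given.

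The remaining isoforms of complex IV were near the limit of detection. Cox7a1, the muscle form of subunit 7A, had 13, 17 and 24 counts in heme libraries and 60, 37 and 40 in control libraries (log2 fold change -1.01, edgeR adjusted p = 0.0142). Cox6b2, the testis form of subunit 6B, had 7, 1 and 4 counts in heme libraries and 22, 28 and 17 in control libraries, a ratio of 0.223 (95% interval 0.110 to 0.416, counting error only). Cox4i2, known as an oxygen-regulated form of subunit 4, had 1 count over the heme libraries and 13 over the control libraries (ratio 0.0957, 95% interval 0.00225 to 0.637). Ndufa4l2 had 8 counts over the heme libraries and 1 over the control libraries (ratio 9.96, 95% interval 1.34 to 442) and overlaps Shmt2, which has 8973 counts. Cox8b had 1 count over the heme libraries and 0 over the control libraries, and Cox7b2 and Cox8c had 0 in all libraries, which at 3 counts allows up to 0.119 CPM. These 5 genes with the fewest counts were not tested. Outside the name rule, AA467197, a paralog of Ndufa4 known as Nmes1, had 2.06 ± 0.32 CPM in heme libraries and 0.737 ± 0.153 CPM in control libraries (SD, n = 3 each, log2 fold change 1.47, edgeR adjusted p = 0.000395).

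Complex V had 16 nuclear members, of which 6 were higher, none lower and 10 not called, with a median log2 fold change of 0.13. With library sizes alone the median was -0.089, none was higher and 5 were lower. Atp5b, the catalytic beta subunit, had 585, 582 and 597 CPM in heme libraries, against 505, 437 and 454 CPM in control libraries (log2 fold change 0.34 ± 0.07, SE, edgeR adjusted p = 0.00252). Its partner in the catalytic ring, the alpha subunit Atp5a1, had 461, 475 and 466 CPM in heme libraries and 513, 488 and 486 CPM in control libraries (log2 fold change -0.08, 95% interval -0.22 to 0.05). Atp5l, Atp5g3, Atp5f1, Atp5e and Atp5d rose by 0.35, 0.30, 0.26, 0.24 and 0.17, and none of the 6 called genes kept its call with library sizes alone, where Atp5d stood at -0.055.

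Subunit c of complex V, which forms the rotating ring in the membrane, is made from 3 genes with the same mature protein. Atp5g3 had 134, 128 and 133 CPM in heme libraries, against 112, 102 and 106 CPM in control libraries. Atp5g2 had 73.6, 68.5 and 68.7 CPM in heme libraries and 71.5, 79.7 and 74.1 CPM in control libraries, and Atp5g1 had 42.3, 41.4 and 41.8 CPM in heme libraries and 42.3, 34.9 and 35.4 CPM in control libraries. Neither of these passed the test. As a share of the 3 genes per kilobase, Atp5g2 made up 38.6%, 37.9% and 37.2% in heme libraries, against 41.6%, 46.9% and 44.2% in control libraries. The log2 ratio of Atp5g2 to Atp5g3 was -0.52 in heme libraries and -0.13 in control libraries. That of Atp5g1 to Atp5g3 was -2.81 in heme libraries and -2.67 in control libraries. These shares and ratios use all annotated exons, 4912 bases for Atp5g1 and 2181 for Atp5g3. The longest transcripts have 4715 and 862 bases, so with transcript lengths the shares and ratios could differ.

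**Figure D5:**
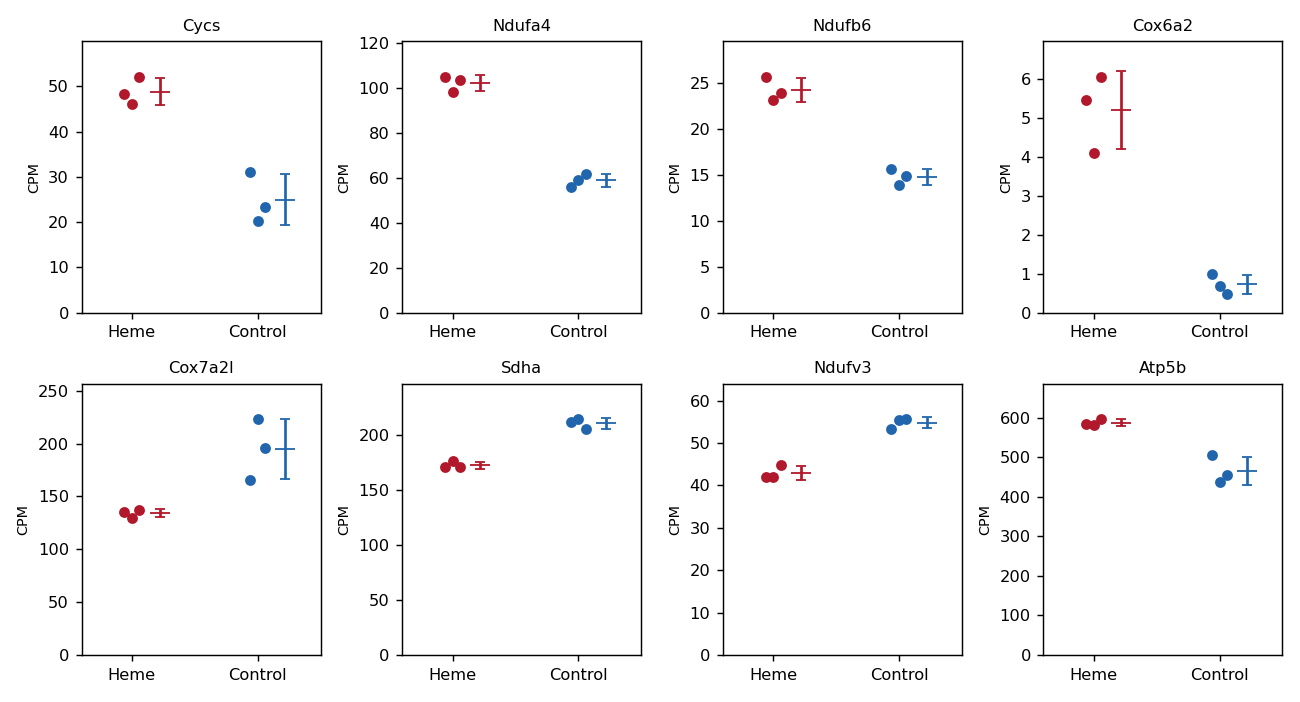
Points are single libraries (3 heme, 3 control), with the mean and SD beside them, in CPM on axes that start at 0, for 8 nuclear members. Heme libraries lie above all control libraries in Cycs, Ndufa4, Ndufb6, Cox6a2 and Atp5b, and under all of them in Cox7a2l, Sdha and Ndufv3.

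Several members share exonic sequence or position with other genes. Of the 95 nuclear members, 28 overlap another gene in the count tables, among them Ndufb6 (Smim27), Uqcrc2 (Pdzd9), Ndufab1 (Gm44986) and Ndufb9 (Gm49356). More than 20% of the 50-base stretches recur in other annotated transcripts for 14 members, among them Ndufb6 (34.1%), Ndufs5 (31.1%, BC002163) and Cycs (28.5%). Ndufa4, Cox7b, Cox7a2l, Sdha, Ndufv3, Ndufs8, Uqcrq, Ndufaf7 and Cycs overlap no counted gene. The strand setting of the counting is not given in the sources used here, and if strand was not used, reads of a gene and its antisense partner cannot be told apart.

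Promoters of the members were searched for 5 motifs known from nuclear respiratory genes or from the NRF2 response, on both strands of the 300 bases from 250 before to 50 after the start site in RefSeq (GRCm38.p6). The motifs were GCGCATGCG of NRF1 (nuclear respiratory factor 1, not NRF2), CCGGAAG of ETS factors such as GABP, TCAAGGTCA of the estrogen-related receptors, AAGATGGCG of YY1 and TGACNNNGC, the core of the antioxidant response element. The table held 75 of the 95 nuclear members. NRF1 letters were found for 11 of the 75 (14.7%) and for 1.95% of all 27025 genes in the table, ETS letters for 18 (24.0%) and 9.93% of all genes, YY1 letters for 8 (10.7%) and 1.64%, estrogen-related receptor letters for 2 (2.67%) and 0.466%, and the antioxidant response element core for 11 (14.7%) and 14.0% of all genes. Among the 36 members called higher, 6 had the NRF1 motif, 8 the ETS motif and 8 the antioxidant response element core, among the 9 called lower these counts were 0, 2 and 0, and among the 28 not called they were 5, 8 and 3. The YY1 motif was held by 1 of the higher, 1 of the lower and 6 of the members not called. A match of letters is a description and no evidence of binding.

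The promoters below are of members whose changes lead the results and that hold a match: Cycs (chr6:50566520-50566819, minus strand), Ndufb6 (chr4:40279372-40279671, minus strand) and Ndufs5 (chr4:123718137-123718436, minus strand), which rose, and Ndufs8 (chr19:3912725-3913024, minus strand) and Ndufaf8 (chr11:120098684-120098983, plus strand), which fell. Each runs 5′ to 3′ on the gene's strand, and capitals mark the match: NRF1 on the reverse strand in Cycs, ETS on the reverse strand in Ndufb6 and Ndufs8, the antioxidant response element core in Ndufs5, and ETS and then YY1 in Ndufaf8. No matches overlap in these 5 promoters.
Cycs: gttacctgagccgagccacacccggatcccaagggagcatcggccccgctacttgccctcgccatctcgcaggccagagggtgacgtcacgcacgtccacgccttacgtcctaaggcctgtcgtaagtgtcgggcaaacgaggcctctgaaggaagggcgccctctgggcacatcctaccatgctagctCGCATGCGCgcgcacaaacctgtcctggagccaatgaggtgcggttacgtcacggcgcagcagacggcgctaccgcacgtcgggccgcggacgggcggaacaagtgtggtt
Ndufb6: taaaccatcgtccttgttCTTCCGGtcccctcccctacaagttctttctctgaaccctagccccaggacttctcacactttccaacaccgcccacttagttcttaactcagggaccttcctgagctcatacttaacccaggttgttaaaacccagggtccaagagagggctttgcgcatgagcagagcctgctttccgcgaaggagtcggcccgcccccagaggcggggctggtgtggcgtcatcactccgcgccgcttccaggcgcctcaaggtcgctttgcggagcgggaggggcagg
Ndufs5: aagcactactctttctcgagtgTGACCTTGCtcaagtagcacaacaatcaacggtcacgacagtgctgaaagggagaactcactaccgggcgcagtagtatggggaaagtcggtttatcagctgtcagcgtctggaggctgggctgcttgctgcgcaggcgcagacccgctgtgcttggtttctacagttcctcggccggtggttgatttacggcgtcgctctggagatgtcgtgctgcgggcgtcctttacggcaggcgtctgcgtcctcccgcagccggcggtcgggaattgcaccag
Ndufs8: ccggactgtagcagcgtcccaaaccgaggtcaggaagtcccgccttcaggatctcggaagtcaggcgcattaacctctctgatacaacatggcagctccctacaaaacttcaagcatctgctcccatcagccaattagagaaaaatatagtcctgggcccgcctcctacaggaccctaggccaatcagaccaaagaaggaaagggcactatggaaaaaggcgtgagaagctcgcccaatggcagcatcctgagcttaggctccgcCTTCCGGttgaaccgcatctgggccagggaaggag
Ndufaf8: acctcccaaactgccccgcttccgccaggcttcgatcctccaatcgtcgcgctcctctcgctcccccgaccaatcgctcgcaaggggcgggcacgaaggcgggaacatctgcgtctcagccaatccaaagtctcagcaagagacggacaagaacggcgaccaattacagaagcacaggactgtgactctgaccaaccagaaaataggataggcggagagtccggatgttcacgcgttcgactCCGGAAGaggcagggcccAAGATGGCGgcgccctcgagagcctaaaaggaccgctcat

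The factors known to act on such promoters were mostly lower in heme-treated BMDMs. Of 9 tested regulators of nuclear respiratory genes, 5 fell, 1 rose and 3 were not called, with a median log2 fold change of -0.31. Nrf1 had 18.9 ± 1.5 CPM in heme libraries and 23.7 ± 0.5 CPM in control libraries (SD, n = 3 each), a log2 fold change of -0.33 (edgeR adjusted p = 0.00559). Gabpa and Gabpb2, which encode subunits of the ETS factor GABP, fell by 0.36 and 0.77 on the log2 scale, and Yy1 fell by 0.33. The list also holds Gabpb1, whose value is not given here, and Gabpa overlaps Atp5j on the opposite strand. Pprc1, a coactivator of the PGC-1 family, rose by 0.28 but not with library sizes alone, and Ppargc1a was not tested, with 0.0122 CPM in heme libraries and 0.0497 CPM in control libraries on average. Cycs, whose promoter holds the NRF1 letters, was higher and Nrf1 lower in the same libraries, and a link between them was not tested. With library sizes alone 6 regulators were lower and none was higher.

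Of 18 tested genes that transcribe and maintain mitochondrial DNA, 4 were higher, 3 were lower and 11 were not called, and with library sizes alone 2 were higher and 5 lower. Tfam, which packages mitochondrial DNA and starts its transcription, had 20.3 ± 0.7 CPM in heme libraries and 19.7 ± 0.9 CPM in control libraries (SD, n = 3 each, log2 fold change 0.05), and Polrmt, the mitochondrial RNA polymerase, had 18.0 ± 1.8 CPM in heme libraries and 20.8 ± 1.2 CPM in control libraries (log2 fold change -0.21, edgeR adjusted p = 0.0787). Top1mt, Ssbp1 and Tfb2m rose by 0.65, 0.46 and 0.40, and Tk2, Mgme1 and Polg, the mitochondrial DNA polymerase, fell by 0.83, 0.45 and 0.38.

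Genes that process or degrade mitochondrial RNA were higher as a list, with 11 of 17 called higher, 0 lower and a median log2 fold change of 0.34. With library sizes alone 6 were higher and 1 lower. Rexo2, an exonuclease that clears short RNA fragments in mitochondria, had 110 ± 5 CPM in heme libraries and 42.0 ± 3.1 CPM in control libraries (SD, n = 3 each, log2 fold change 1.39). Fastkd1 and Tbrg4 (FASTKD4), both of the FASTK family that binds mitochondrial RNA, rose by 1.11 and 0.85, and Lrpprc, which stabilizes mitochondrial mRNAs, rose by 0.32.

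Assembly factors outside the name rule split evenly, with 13 of 50 higher, 12 lower and a median of -0.01, although with library sizes alone 7 were higher and 26 lower. Cox17, the copper chaperone of complex IV, had 32.6 ± 0.2 CPM in heme libraries and 15.9 ± 0.6 CPM in control libraries (SD, n = 3 each, log2 fold change 1.03), and Uqcc2, an assembly factor of complex III, rose by 0.77. Lyrm7, which delivers the Rieske protein to complex III, rose by 0.96 at 0.626 CPM in heme libraries and 0.321 CPM in control libraries. Dmac1, Sdhaf1 and Coa4 fell by 0.82, 0.74 and 0.59, of which Sdhaf1 serves the iron-sulfur subunit of complex II. Cox15, which makes the heme a of complex IV, fell by 0.28.

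Lists of metabolism, electron entry, carriers and import around the chain were also counted. Of 26 tested genes of the tricarboxylic acid cycle and pyruvate entry, 13 were higher, 7 lower and 6 not called, and with library sizes alone 11 were higher and 9 lower. Pcx, the pyruvate carboxylase that makes oxaloacetate, had 145 ± 14 CPM in heme libraries and 11.5 ± 1.1 CPM in control libraries (SD, n = 3 each, log2 fold change 3.65), Mpc2 of the pyruvate carrier rose by 1.06 and Mdh2 by 0.67. The pyruvate dehydrogenase kinases Pdk2 and Pdk1 fell by 0.85 and 0.61, and the phosphatase Pdp2 by 0.71. Of 19 genes of coenzyme Q synthesis and other electron entry, 6 were higher and 1 was lower, against 5 and 8 with library sizes alone. Sqor, which passes electrons from sulfide to coenzyme Q, had 154 ± 8 CPM in heme libraries and 59.3 ± 5.5 CPM in control libraries (log2 fold change 1.38), Coq3 and Coq10b rose by 1.13 and 1.04, and Coq8a fell by 1.48. Of 28 carriers, porins and import factors, 17 were higher and 1 was lower. Chchd4, the oxidoreductase that folds imported proteins of the intermembrane space, had 31.2 ± 0.9 CPM in heme libraries and 15.1 ± 2.2 CPM in control libraries (log2 fold change 1.05), Vdac3 and Timm9 rose by 0.85 and 0.74, and Timm44 fell by 0.30. With library sizes alone the 17 and 1 became 9 and 6.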

How the data were processed

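Gene expression of 3 heme-treated and 3 control BMDM cultures was sequenced in bulk. The authors deposited read counts per Ensembl gene, as whole numbers without normalization, made per the labels with STAR 2.7.0 and featureCounts on GRCm38.p5. Which annotation release, strand setting and read filter they used is not given in the sources used here, nor is a method of differential expression stated in the main text of the paper, whose supplemental methods were not read. Symbols, positions and exon lengths came from GENCODE M21 on GRCm38.p6, in which 25664 of 25700 identifiers had a symbol.

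Counts were analysed in R 4.3.3 with edgeR 4.0.16: filterByExpr (minimum count 10), TMM and the quasi-likelihood test (glmQLFit, glmQLFTest) of condition, without other terms, with Benjamini-Hochberg adjustment over all 12433 tested genes. Levels are compared between genes only as CPM per kilobase of exon. Depth was 27201038 to 32994595 counts per library. Intervals on ratios of sparse counts are exact binomial (95%) and cover counting error only. Isoform ratios used a pseudocount of 0.1 CPM per kb, with 1 as the alternative, and an exact permutation test over libraries, two-sided. p-values across libraries rest on 3 cultures per group.

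Members, gene lists and motifs were chosen with earlier results of these data known. Genes named by rule were all mitochondrially encoded and complex II members, Cycs, isoform pairs, the highest member of each complex, up to 6 called rises and 6 called falls per nuclear complex, and up to 3 of each per further list; Tfam, Polrmt, Yy1, Lrpprc, Cox15, Ppargc1a and other members or markers were named after their values were seen. Alternatives were other scalings, filters, DESeq2 1.42.0, limma-voom (limma 3.58.1), the replicate number as a block, offsets for GC content and length, and leaving out each library. The procedure was tested on simulated data. The values of 1 member are not reported here.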

Additional observations from a re-analysis of the deposited data

How the results depend on the processing

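Scaling and the offsets for GC content and gene length changed the most. With library sizes only, all genes called higher numbered 2580 and all genes called lower 5814, members called higher 14 and members called lower 40, nuclear subunits called higher 12 and nuclear subunits called lower 28, and mitochondrially encoded members called lower 11. The median log2 fold change was then -0.068 for the nuclear genome, subunits, -0.70 for the mitochondrial genome, subunits, and -0.031, -0.20, -0.18, -0.047 and -0.089 for nuclear complexes I, II, III, IV and V, and the log2 fold change was -0.029 for Sdhb, -0.16 for Sdhd, -0.055 for Atp5d and -0.047 for Cox6b1. With GC and length offsets, members called higher numbered 24 and members called lower 27, nuclear subunits called higher 22 and nuclear subunits called lower 20, with medians of 0.024 for nuclear subunits, 0.017, -0.15, -0.040, 0.043 and -0.035 for complexes I to V, and -0.14 for Sdhd. With the replicate block and these offsets together, members called higher numbered 19 and members called lower 25, nuclear subunits called higher 17 and nuclear subunits called lower 18, with medians of 0.024 for nuclear subunits and 0.016, -0.15, -0.039, 0.042 and -0.034 for complexes I to V. The cause was not tested. The labels do not say whether replicate numbers pair the libraries. After centring within groups, same-number correlations were -0.0998, -0.142 and -0.0683, and those of other pairs reached 0.109. With 3 libraries per group these values cannot settle whether libraries are paired. The replicate block alone gave 38 members called higher and 16 members called lower.

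Without single libraries, members called higher ranged over 31 to 46 and members called lower over 12 to 25, nuclear subunits called higher over 28 to 39 and nuclear subunits called lower over 7 to 13, and mitochondrially encoded members called lower over 4 to 11, the highest counts lower coming without control library 1. Over the same fits, all genes called higher ranged over 3457 to 4071 and all genes called lower over 3253 to 3968. The medians ranged from 0.14 to 0.18 for the nuclear genome, subunits, and from -0.61 to -0.38 for the mitochondrial genome, subunits. Among tested members, counts under 100 in every library limit mt-Nd3, mt-Nd4l, mt-Co2, mt-Co3, mt-Atp6, mt-Atp8, Cox7a1, Cox6b2, Ndufaf6 and Atp5s. In control libraries Cox6a2 had 36, 23 and 16 counts.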
